A study of Homo sapiens with 22 samples.

Results

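OLR1, CD36, SERPINA1, SPP1, ICAM4 and FLG-AS1 are 6 genes chosen because their RNA was much higher after a small interfering RNA (siRNA) against SMYD3 than after its control siRNA. They were picked by symbol from 61350 gene names that appear in any of the 4 deposited tables. The question was whether they were also higher when SMYD3 was lost in other ways. The cells were HN-6, an established human line of head and neck squamous cancer, and polyadenylated RNA was sequenced from 22 stranded libraries. Every group had interferon-β at 1000 U/ml for the last 24 h, so no group shows the cells without it.

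The 4 comparisons each had their own control group and shared no library. Cells of 5-3, a single SMYD3 knockout line made from HN-6, were set against the parental HN-6 cells (3 libraries each). Cells given 1 SMYD3 siRNA for 72 h were set against cells given a negative control siRNA (3 each). The antisense oligonucleotide (ASO) 081, which targets SMYD3 transcripts, was given for 72 h and set against phosphate-buffered saline, PBS (2 each). A UHRF1 siRNA given for 72 h was set against a second group with a negative control siRNA (3 each). A single knockout line cannot be told apart from other features of that clone, and PBS is not a control oligonucleotide.

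SMYD3 is a lysine methyltransferase, and UHRF1 recruits the maintenance DNA methyltransferase to newly copied DNA. OLR1 (also called LOX-1) and CD36 are scavenger receptors that bind oxidized lipoproteins, and CD36 also takes up long-chain fatty acids. SERPINA1 encodes alpha-1 antitrypsin, a secreted inhibitor of neutrophil elastase that the liver makes in the acute phase response. SPP1 encodes osteopontin, a secreted ligand of integrins and CD44. ICAM4 is an adhesion molecule of the immunoglobulin superfamily known best from red blood cells, and FLG-AS1 is a noncoding RNA transcribed antisense to FLG, the filaggrin gene of the epidermis.

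The 6 genes lie on 6 chromosomes, so none neighbours another. In GENCODE release 29 (GRCh38), OLR1 spans positions 10158301 to 10172138 of chromosome 12 on the minus strand. CD36 spans 80369575 to 80679277 of chromosome 7 on the plus strand, and SERPINA1 spans 94376747 to 94390693 of chromosome 14 on the minus strand. SPP1 spans 87975650 to 87983426 of chromosome 4, and ICAM4 spans 10286967 to 10288522 of chromosome 19, both on the plus strand. FLG-AS1 is annotated as antisense, from 152168125 to 152445456 of chromosome 1 on the plus strand.

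Since the genes were high together with the SMYD3 siRNA, their promoters were read for motifs. RefSeq windows (GRCh38.p14) run from 250 bases before to 50 bases after an annotated start. The table matched 5 of the 6 genes: CD36 with 6 windows, SERPINA1 and FLG-AS1 with 2 each, and SPP1 and ICAM4 with 1 each. Shown 5′ to 3′ on the gene's strand is 1 window per gene, for CD36 and FLG-AS1 the one with a match in capitals. Capitals mark matches to AP-1 (TGANTCA), to the STAT element GAS (TTCNNNGAA) or to NF-kB.
CD36 chr7:80645999-80646298 (+): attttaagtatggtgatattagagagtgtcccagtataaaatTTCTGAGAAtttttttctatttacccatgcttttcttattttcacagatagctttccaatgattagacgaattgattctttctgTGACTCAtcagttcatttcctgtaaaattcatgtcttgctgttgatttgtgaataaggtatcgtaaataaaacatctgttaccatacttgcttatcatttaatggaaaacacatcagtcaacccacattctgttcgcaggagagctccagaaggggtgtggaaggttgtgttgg
SERPINA1 chr14:94388553-94388852 (-): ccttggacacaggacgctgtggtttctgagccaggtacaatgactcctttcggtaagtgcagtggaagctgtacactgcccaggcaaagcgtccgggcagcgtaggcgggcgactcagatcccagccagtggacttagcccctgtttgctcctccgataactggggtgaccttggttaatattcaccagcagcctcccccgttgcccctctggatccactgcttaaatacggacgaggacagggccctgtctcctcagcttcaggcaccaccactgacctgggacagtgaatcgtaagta
SPP1 chr4:87975464-87975763 (+): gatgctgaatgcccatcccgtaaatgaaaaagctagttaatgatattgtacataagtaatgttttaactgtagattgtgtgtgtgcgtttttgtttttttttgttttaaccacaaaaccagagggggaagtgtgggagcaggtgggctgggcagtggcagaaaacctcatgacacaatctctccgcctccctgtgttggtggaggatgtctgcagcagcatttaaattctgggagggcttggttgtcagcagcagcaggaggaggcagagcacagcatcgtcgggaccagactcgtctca
ICAM4 chr19:10286705-10287004 (+): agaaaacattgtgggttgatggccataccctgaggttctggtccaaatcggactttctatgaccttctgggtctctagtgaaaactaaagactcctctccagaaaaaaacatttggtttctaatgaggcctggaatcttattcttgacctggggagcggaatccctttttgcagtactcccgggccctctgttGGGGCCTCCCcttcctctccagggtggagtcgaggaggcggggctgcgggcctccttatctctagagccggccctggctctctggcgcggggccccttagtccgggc
FLG-AS1 chr1:152336818-152337117 (+): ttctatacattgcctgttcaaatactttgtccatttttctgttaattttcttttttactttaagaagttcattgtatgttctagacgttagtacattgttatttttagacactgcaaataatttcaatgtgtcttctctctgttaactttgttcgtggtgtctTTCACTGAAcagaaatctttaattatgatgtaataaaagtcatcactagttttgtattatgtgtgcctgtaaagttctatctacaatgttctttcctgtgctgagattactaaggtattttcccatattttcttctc

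No motif searched was common to these windows. Both strands were read for AP-1, GAS, NF-kB, the interferon element ISRE and TATAAA, and no matches overlapped. The CD36 window held 1 AP-1 match starting at position -124 and 1 GAS match at -208 from the start site, beside TATAAA at -216, left in lower case. Another CD36 window held TATAAA at -211, and the other 4 held no match. The ICAM4 window held 1 NF-kB match at -57, and the FLG-AS1 window 1 GAS match at -87. None of the 5 motifs was in the SPP1 window, in either SERPINA1 window or in the second FLG-AS1 window. Of all 35116 windows in the table, 7.71% held AP-1, 7.66% GAS, 11.3% NF-kB, 3.57% ISRE and 11.5% TATAAA. A match describes letters only.

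Each library of the knockout comparison had 24783605 to 47702859 reads assigned to genes. The SMYD3 siRNA comparison had 32441991 to 54121262, that of the ASO 30792923 to 32045158, and that of UHRF1 57588142 to 62921144. SMYD3 itself was lower in every treated library of the 3 SMYD3 comparisons, with log2 fold changes of -1.79 ± 0.13 (SE) in the knockout, -2.41 ± 0.12 with the siRNA and -2.52 ± 0.12 with the ASO. UHRF1 went from 9.82 ± 1.39 to 3.05 ± 0.566 CPM (SD, n = 3; CPM is a gene's count scaled to the library's size) with the SMYD3 siRNA, but rose by 0.44 ± 0.03 (log2, SE) in the knockout and 0.36 ± 0.06 with the ASO. With its own siRNA, UHRF1 fell from 64.5 ± 1.73 to 2.22 ± 0.420 CPM (SD, n = 3), and SMYD3 fell by 0.57 ± 0.09 on the log2 scale. Libraries called replicates are biological replicates by the study's account, and p-values measure the spread between them.

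OLR1, CD36 and SPP1 are also macrophage genes, and SERPINA1 is a liver gene, so markers of other cells were read in the same libraries. The summed level of 13 monocyte and macrophage markers was 20.1 to 22.8 CPM with the control siRNA and 19.5 to 23.9 with the SMYD3 siRNA, and C1QA and C1QB were at 0 in both groups. In the knockout table only 5 of those markers have a line, and their sum was 47.5 to 50.7 CPM in parental cells and 312.1 to 332.8 in the clone, where CD68 alone made up 97.8% of it. Of 8 hepatocyte markers, the sum stayed between 0.800 and 1.47 CPM in the 6 libraries of the SMYD3 siRNA table, with APOB and TTR at 0. Fibroblast markers, led by COL1A1 and LUM, summed to 134.9 to 157.8 CPM with the control siRNA and 221 to 263.1 with the SMYD3 siRNA. They summed to 59.0 to 62.9 CPM in parental cells and 15.7 to 18.0 in the clone. Endothelial markers summed to 13.4 to 15.3 CPM with the control siRNA and 7.75 to 8.03 with the SMYD3 siRNA. With the UHRF1 siRNA the fibroblast sum went from 118.6 to 119.7 up to 503.7 to 578.1 CPM, of which COL1A1 made up 95.2%. The squamous epithelial markers summed to between 2180 and 6339 CPM over all 22 libraries. EPCAM (29.5%) and ITGB4 (24.8%) led that sum in parental cells and CDH1 (46.2%) with the UHRF1 siRNA, and a keratin led it in no group. Of the keratins, KRT14 had 0.735 CPM with the control siRNA of the SMYD3 comparison, and KRT17 had 375 CPM with the UHRF1 siRNA. The part of other cells' markers in the results was not tested, and in bulk RNA more cells of a type and more RNA per cell cannot be told apart.

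With the SMYD3 siRNA, which chose the genes, all 6 were higher in each of its 3 libraries than in any control library. In all genes tested this held for 27.8%, and these values are a description. CPM values here were scaled by TMM factors, which correct library totals for composition. ICAM4 had 0.643, 0.326 and 0.465 CPM in the control libraries and 6.34, 10.2 and 9.68 with the SMYD3 siRNA, a log2 fold change of 4.15 ± 0.23 (SE). FLG-AS1 had 0.995, 0.859 and 1.23 CPM against 13.5, 10.7 and 12.3, a log2 fold change of 3.54 ± 0.15. Both were low with the control siRNA, with at most 31 reads of ICAM4 and 69 of FLG-AS1 in a control library.

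Of the receptors, CD36 had 1.76, 1.19 and 1.84 CPM with the control siRNA and 13.6, 9.73 and 12.5 with the SMYD3 siRNA, a log2 fold change of 2.87 ± 0.16. OLR1 had 28.4, 26.2 and 28.6 CPM against 113, 126.1 and 117, a log2 fold change of 2.10 ± 0.08. Of the secreted proteins, SERPINA1 had 87.9, 72.5 and 69.7 CPM against 446.7, 553.1 and 425.1, a log2 fold change of 2.63 ± 0.12. SPP1 had 15.1, 16.7 and 17.4 CPM against 95.7, 109.9 and 91.2, a log2 fold change of 2.59 ± 0.09.

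The 6 genes are not the top 6 of the table. Among 14979 genes with a mean of 1 CPM or more, ICAM4 ranked 1 by log2 fold change, FLG-AS1 3, CD36 6, SERPINA1 10, SPP1 11 and OLR1 28. Genes between them that were not chosen include FLG at 3.68 (rank 2), the glucose transporter SLC2A3 at 3.12 (rank 4), the cytokine TNFSF14 at 2.94 (rank 5) and COL12A1 at 2.55 (rank 12). The choice had no threshold, and 24.2% of the 18965 genes tested were called higher in that comparison. Per kilobase of exon, SERPINA1 was the most abundant of the 6 with the SMYD3 siRNA, at an RPKM (CPM divided by exon length in kilobases) of 96.9, followed by SPP1 at 42.6, OLR1 at 38.8, ICAM4 at 6.07, FLG-AS1 at 1.59 and CD36 at 1.10.

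**Figure D1:**
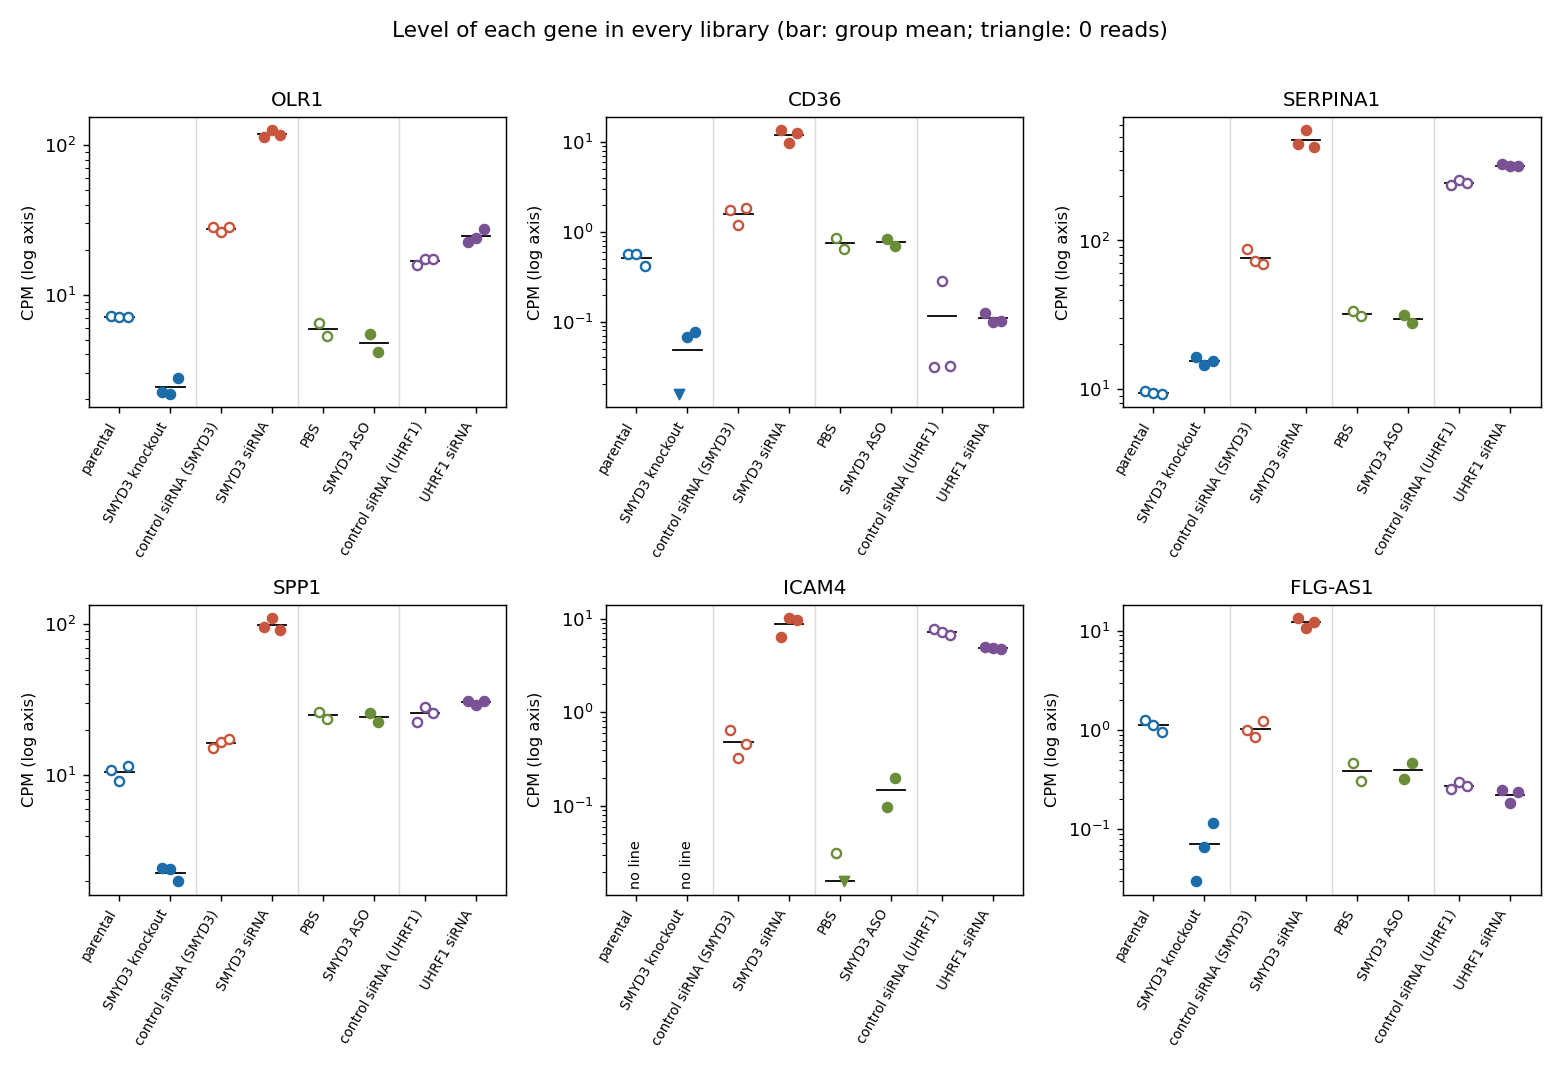
Level of each of the 6 genes in each library, in CPM on a log axis, by group; open points are control libraries, filled points treated libraries, black bars group means, and triangles libraries with 0 reads. All 6 genes stand highest in the 3 SMYD3 siRNA libraries, though for ICAM4 those libraries (6.34 to 10.2 CPM) overlap the control libraries of the UHRF1 comparison (6.75 to 7.81 CPM).

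In the knockout clone the high levels did not recur as a group. SERPINA1 was higher than in parental cells, while OLR1, SPP1, CD36 and FLG-AS1 were lower, and ICAM4 has no line in that table. The deposited values are reads divided by 1 factor per library, called normalized reads here, and were tested with limma on log2(value + 1). In all 16933 genes tested 42.1% passed an adjusted p of 0.05 as higher and 42.6% as lower, so calls in either direction were common. Treated libraries lay above every control library in 42.7% of genes and below in 43.1%, and each of the 5 genes was separated in this way. Mitochondrial genes took 14.95% to 15.7% of reads in the parental libraries and 4.82% to 4.88% in the clone.

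OLR1 had 237.3, 233.2 and 233.6 normalized reads in parental cells and 74.3, 72.9 and 92.8 in the clone. The groups did not overlap, and OLR1 fell by 1.55 ± 0.12 (log2, SE, n = 3 each; limma adjusted p = 1.15e-08). SPP1 had 356.6, 300.1 and 374.9 normalized reads in parental cells and 81.3, 80.4 and 66.1 in the clone, and fell by 2.16 ± 0.12 (limma adjusted p = 2.19e-10). The receptor for oxidized lipoproteins and the integrin ligand were thus both lower in the clone and higher with the siRNA.

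CD36 and FLG-AS1 were near the limit of detection in the clone. CD36 had 15, 21 and 16 reads in the parental libraries and 0, 3 and 2 in the clone. That is 16.9 ± 2.96 against 1.59 ± 1.39 normalized reads (SD, n = 3), a fall of 2.98 ± 0.55 on the log2 scale (limma adjusted p = 1.35e-04). The size of the CD36 change rests on the pseudocount, since it was -1.75 with a pseudocount of 5 and -3.43 with 0.5. FLG-AS1 had 33, 42 and 37 reads in parental cells and 1, 3 and 3 in the clone, and fell by 3.57 ± 0.40 (limma adjusted p = 8.13e-07). Both genes reached the filter, 10 normalized reads or more in 3 libraries, only through the parental libraries, so their calls add nothing to a count of genes. Without any 1 parental library neither could be tested, and the count called lower went from 4 to 2.

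SERPINA1 was the one gene of the 5 whose direction matched that with the siRNA. It had 319, 307.1 and 304.7 normalized reads in parental cells and 544.2, 485.8 and 513.6 in the clone. It rose by 0.73 ± 0.07 (log2, SE, n = 3 each; limma adjusted p = 1.98e-07), which is 1.66-fold against 6.19-fold with the siRNA; the difference between these was not tested. Of the genes tested in the knockout comparison, 22% had a larger log2 fold change than SERPINA1. Upper quartile factors, which move the median of all genes by -0.279, gave 0.45 for SERPINA1 (edgeR adjusted p = 2.29e-05).

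With the ASO no gene of the 6 was called in either direction, although SMYD3 itself was at -2.52 on the log2 scale, against -2.41 with the siRNA. Of the 18233 genes tested by edgeR, 11.3% were called higher and 10.3% lower. Of the 5 genes tested, 0 had an unadjusted p under 0.05 by edgeR, and DESeq2 likewise gave 0 of 6. Without the filter edgeR gave 2 of 6 (OLR1 and ICAM4), and 1 fit over 16 libraries gave 1 of 6 (ICAM4). With replicate numbers as blocks edgeR gave 1 of 5 (OLR1, edgeR adjusted p = 0.0513). None of these passed the adjusted threshold. The log2 fold changes of the 5 genes ran from -0.30 for OLR1 to 0.05 for CD36.

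OLR1 had 6.52 and 5.29 CPM with PBS and 5.48 and 4.12 with the ASO. The groups overlapped, and the log2 fold change was -0.30 ± 0.16 (SE, n = 2 each), with a 95% confidence interval from -0.645 to 0.0516 (edgeR adjusted p = 0.211). Without ASO replicate 1 OLR1 was called lower, at -0.52 (edgeR adjusted p = 0.0187). SERPINA1 had 33.3 and 31.1 CPM with PBS and 31.5 and 27.9 with the ASO, a log2 fold change of -0.11 ± 0.08 with an interval from -0.277 to 0.0485 (edgeR adjusted p = 0.307). SPP1 had 26.3 and 23.6 CPM against 26.01 and 22.6, with an interval from -0.222 to 0.146 (edgeR adjusted p = 0.793).

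The low genes gave wider intervals with the ASO. CD36 had 27 and 21 reads with PBS and 26 and 21 with the ASO, a log2 fold change of 0.05 ± 0.31 with an interval from -0.609 to 0.716 (edgeR adjusted p = 0.924). FLG-AS1 had 15 and 10 reads against 10 and 14, a log2 fold change of 0.03 ± 0.42 with an interval from -0.890 to 0.942 (edgeR adjusted p = 0.974). ICAM4 had 1 and 0 reads with PBS and 3 and 6 with the ASO, too few to pass the filter. Relative to library totals that is a ratio of 9.12 with an exact 95% interval from 1.26 to 399.8, which covers counting error only. Fitted without the filter, ICAM4 had a log2 fold change of 2.97 ± 1.25 (edgeR adjusted p = 0.101).

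**Figure D2:**
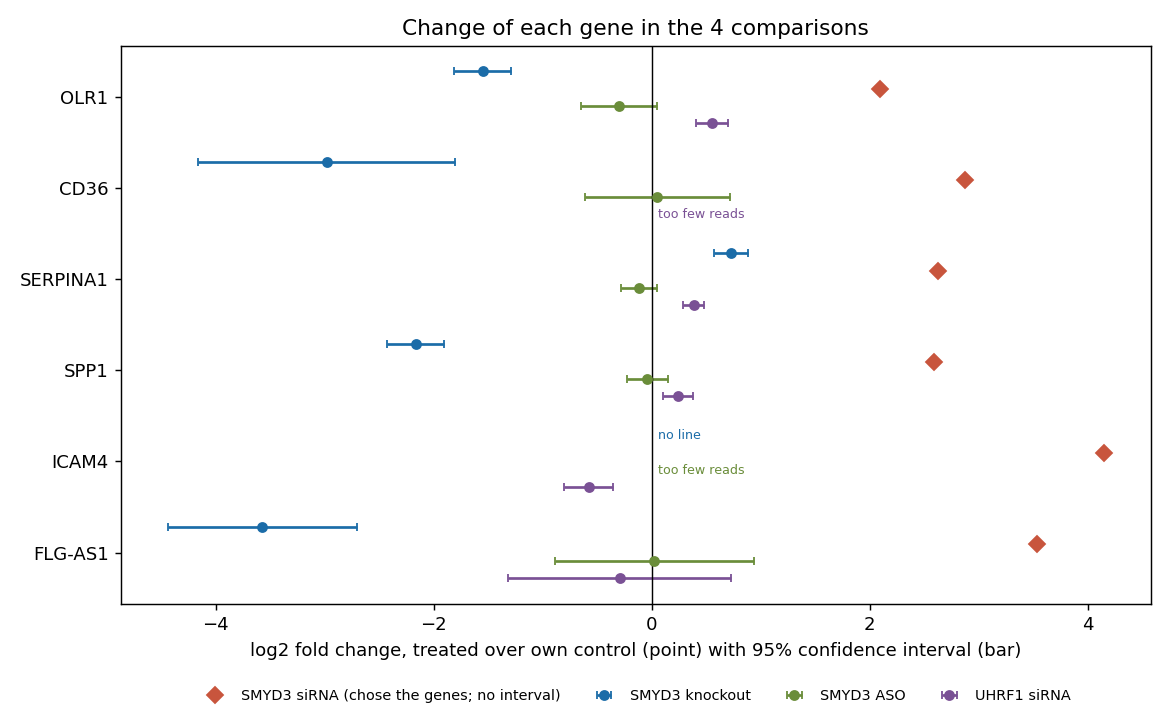
Log2 fold change of each gene, treated over its own control, in the 4 comparisons; points are fitted values and bars 95% confidence intervals, left out for the SMYD3 siRNA, which chose the genes. The knockout points of OLR1, CD36, SPP1 and FLG-AS1 lie at -1.55 or below and that of SERPINA1 at 0.73, while each ASO interval spans 0.

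The effects of the knockout and the ASO differed for all 5 genes that both tables hold. The difference was tested with limma in 1 model of log2(CPM + 1), where 32.7% of 16880 genes were called higher in the knockout effect and 41.4% lower, so a call here is common. FLG-AS1 reached the filter of 0.5 CPM in 2 libraries only through parental cells. The knockout effect minus the ASO effect was -1.09 ± 0.17 (log2, SE) for OLR1 (limma adjusted p = 5.19e-06) and -1.84 ± 0.14 for SPP1 (limma adjusted p = 1.89e-10). SERPINA1 had the opposite sign, with a difference of 0.67 ± 0.11 (limma adjusted p = 8.21e-06). CD36 and FLG-AS1 had differences of -0.56 ± 0.16 (limma adjusted p = 0.00317) and -1.02 ± 0.16 (limma adjusted p = 7.17e-06). The pseudocount shrinks these low genes: edgeR on the reads gave -3.37 for CD36 and -3.98 for FLG-AS1. With library totals counted without mitochondrial genes, the differences were -1.26 for OLR1, -2.02 for SPP1 and 0.52 for SERPINA1, each still called. The knockout is a stable line and the ASO a 72 h treatment, so time and route of SMYD3 loss cannot be told apart here.

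With the UHRF1 siRNA, OLR1, SERPINA1 and SPP1 rose by 0.24 to 0.55 on the log2 scale and ICAM4 fell. Of the 18349 genes tested by edgeR, 32% were called higher and 32.7% lower, and with 3 higher and 1 lower of 5 genes tested, nothing is read from the count. OLR1 had 15.9, 17.4 and 17.4 CPM with the control siRNA and 22.6, 24.0 and 27.6 with the UHRF1 siRNA, and rose by 0.55 ± 0.07 (SE, n = 3 each; edgeR adjusted p = 4.01e-09). SERPINA1 had 237.3, 253.6 and 242.1 CPM against 326.9, 315.4 and 315.7, and rose by 0.39 ± 0.05 (edgeR adjusted p = 5.6e-10). In both genes the groups did not overlap. Treated libraries lay above every control library in 33.5% of the genes tested and below in 34.6%.

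SPP1 rose least, from 22.7, 28.4 and 25.8 CPM to 30.8, 29.3 and 31.0. Its log2 fold change was 0.24 ± 0.07 (edgeR adjusted p = 0.00150), and 0.15 without control replicate 1 (edgeR adjusted p = 0.0553). ICAM4 had 7.81, 7.25 and 6.75 CPM with the control siRNA and 4.93, 4.92 and 4.77 with the UHRF1 siRNA, and fell by 0.58 ± 0.11 (edgeR adjusted p = 1.08e-05). ICAM4, with the largest log2 fold change of the 6 with the SMYD3 siRNA, was lower with the UHRF1 siRNA. UHRF1 itself was at 3.05 CPM with the SMYD3 siRNA and 2.22 with its own, from 9.82 and 64.5 in the respective controls. A link between UHRF1 and ICAM4 was not tested.

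FLG-AS1 had 16, 19 and 17 reads with the control siRNA and 14, 11 and 14 with the UHRF1 siRNA, a log2 fold change of -0.29 ± 0.51 with an interval from -1.32 to 0.729 (edgeR adjusted p = 0.631). CD36 had 2, 18 and 2 reads against 7, 6 and 6 and did not pass the filter. The control total of 22 reads against 19 gives a ratio of 0.891 relative to library totals, with an exact 95% interval from 0.456 to 1.73 that covers counting error only. A single control library carried 18 of those 22 reads.

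The starting levels differed between the tables by as much as some of the changes. Levels set across tables are descriptions, since the tables were made separately. SERPINA1 had 9.45 ± 0.195 CPM in parental cells, 32.2 ± 1.55 with PBS, 76.7 ± 9.78 with the control siRNA of the SMYD3 comparison and 244.3 ± 8.36 with that of the UHRF1 comparison, a 25.9-fold range over control groups. That highest control stands 1.94-fold below the SMYD3 siRNA group, at 474.9 ± 68.5. ICAM4 had 0.478 ± 0.159 CPM in one control siRNA group and 7.27 ± 0.528 in the other, a 15.2-fold difference between 2 groups with a negative control siRNA and interferon-β. Its SMYD3 siRNA libraries overlapped that second control group, at 8.74 ± 2.09 CPM.

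The other genes kept the SMYD3 siRNA group clearly on top. OLR1 stood at 118.7 ± 6.73 CPM there, then at 27.7 ± 1.33 with its control siRNA and 24.7 ± 2.53 with the UHRF1 siRNA, which overlapped, and at 16.9 ± 0.863 with the UHRF1 control. Below them came parental cells at 7.15 ± 0.0431, PBS at 5.91 ± 0.870 and the ASO at 4.799 ± 0.964, which overlapped each other, and the knockout at 2.40 ± 0.341. SPP1 stood at 98.9 ± 9.78 CPM with the SMYD3 siRNA and 30.4 ± 0.917 with the UHRF1 siRNA. Its UHRF1 control at 25.7 ± 2.88, PBS at 24.98 ± 1.92 and the ASO at 24.3 ± 2.39 overlapped, followed by the SMYD3 control siRNA at 16.4 ± 1.20, parental cells at 10.5 ± 1.19 and the knockout at 2.28 ± 0.249.

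CD36 stood at 11.96 ± 2.01 CPM with the SMYD3 siRNA and at 1.60 ± 0.358 with its control. The ASO and PBS groups at 0.773 ± 0.0992 and 0.746 ± 0.142 overlapped, then came parental cells at 0.516 ± 0.0889, and the 2 groups of the UHRF1 comparison at 0.115 ± 0.144 and 0.109 ± 0.0142 overlapped above the knockout at 0.0478 ± 0.0417. FLG-AS1 stood at 12.2 ± 1.40 CPM with the SMYD3 siRNA. Parental cells at 1.11 ± 0.151 and the control siRNA at 1.03 ± 0.189 overlapped, as did the ASO at 0.396 ± 0.102 and PBS at 0.389 ± 0.115. The UHRF1 control at 0.275 ± 0.0225, the UHRF1 siRNA at 0.224 ± 0.0353 and the knockout at 0.0705 ± 0.0427 followed.

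Neighbouring genes were read next, since FLG-AS1 overlaps FLG and ICAM4 lies in a cluster of ICAM genes. FLG, whose product is processed to filaggrin in cornified cells, moved against FLG-AS1 in the knockout and with it after the siRNA. It had 6, 8 and 3 reads in parental cells and 193, 252 and 129 in the clone, and rose by 4.86 ± 0.30 (log2, SE; limma adjusted p = 6.28e-10) where FLG-AS1 fell. In this comparison FLG reached the filter only through the clone, and FLG-AS1 only through parental cells. The filter thus favoured the direction of each call. With the SMYD3 siRNA FLG had 8, 4 and 10 reads in the control libraries and 84, 58 and 107 in the treated ones, a log2 fold change of 3.68 ± 0.27, as FLG-AS1 was higher too. The filter favoured a rise there as well, since FLG reached it only through the treated libraries. FLG did not pass the filter in the other comparisons, with 22 reads against 16 for the ASO and 16 against 2 for the UHRF1 siRNA. FLG and FLG-AS1 share 704 exonic bases, 9.15% of the exons of FLG-AS1, on opposite strands. The strand setting of the counting is not stated, so reads in the shared bases cannot be assigned to 1 of the pair.

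ICAM4 lies 352 bases beyond ICAM1, a receptor for leukocyte integrins, and 1459 bases before ICAM5. ICAM1 rose by 1.64 ± 0.07 (log2, SE; limma adjusted p = 1.18e-11) in the knockout, for which ICAM4 has no value. With the ASO ICAM1 was not called, at 0.10 ± 0.06 (edgeR adjusted p = 0.279). It rose by 0.91 ± 0.05 with the UHRF1 siRNA (edgeR adjusted p = 2.56e-22), where ICAM4 fell, and had 1.20 ± 0.13 with the SMYD3 siRNA, where ICAM4 had 4.15. ICAM5 fell in the knockout by 1.00 ± 0.18 (limma adjusted p = 9.97e-05), with the ASO by 0.41 ± 0.12 (edgeR adjusted p = 0.0272; 0.165 by DESeq2) and with the UHRF1 siRNA by 1.08 ± 0.10 (edgeR adjusted p = 2.92e-14). With the SMYD3 siRNA ICAM5 was lower too, at -0.67 ± 0.15, where ICAM4 and ICAM1 were higher. The exons of ICAM4 share no base with those of ICAM1 or ICAM5, but 100% of their bases lie within AC011511.5 as well, so its reads could be split between both by the counting.

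**Figure D3:**
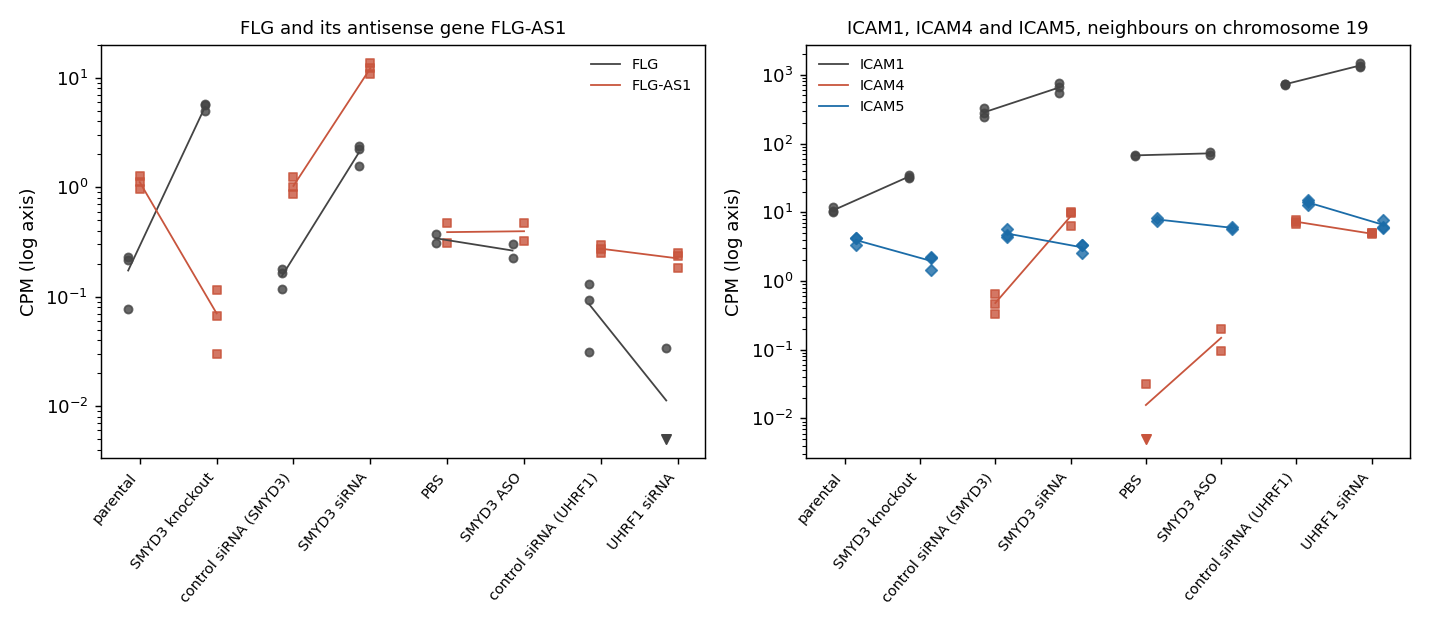
Levels of FLG and FLG-AS1 (left) and of ICAM1, ICAM4 and ICAM5 (right) in each library, in CPM on a log axis, with lines joining the control mean to the treated mean and triangles for libraries with 0 reads. FLG and FLG-AS1 cross in the knockout (FLG from 6, 8 and 3 to 193, 252 and 129 reads, FLG-AS1 from 33, 42 and 37 to 1, 3 and 3), and ICAM4 has no line in the knockout table.

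Other neighbours changed with or against their gene depending on the comparison. TMEM52B, which overlaps OLR1 on the other strand, rose by 0.79 ± 0.08 (log2, SE) in the knockout, where OLR1 fell, and by 0.97 ± 0.06 with the UHRF1 siRNA, where OLR1 rose. CLEC7A, the beta-glucan receptor next to OLR1, fell by 0.83 in the knockout and rose by 0.58 with the ASO and 1.89 with the UHRF1 siRNA. Next to CD36, SEMA3C, a semaphorin, rose by 0.33 in the knockout, where CD36 fell, and fell by 0.43 with the UHRF1 siRNA. Its knockout value was 0.06 and not called with upper quartile factors. PPP4R4, the nearest tested gene on the lower side of SERPINA1 in the knockout table, fell by 1.16 there, by 0.59 with the ASO and by 1.20 with the UHRF1 siRNA. PKD2, the polycystin channel gene beside SPP1, fell by 1.40 in the knockout like SPP1, and rose by 0.23 with the UHRF1 siRNA. CACNA2D1, a calcium channel subunit gene and the second neighbour above CD36 at 1267167 bases, fell by 5.42 in the knockout, where CD36 fell. Like CD36, it reached the filter there only through the parental libraries. With the SMYD3 siRNA, which chose the 6 genes, 5 of these neighbours were higher like their gene. Their log2 fold changes were 0.92 for TMEM52B, 1.37 for CLEC7A, 1.11 for SEMA3C, 1.39 for CACNA2D1 and 1.77 for PPP4R4, while PKD2 was at -0.33. These neighbours are a selection, and 24.2% of all genes tested were called higher there. Among the others, GNAI1 near CD36 was higher at 0.88. Near ICAM4, ICAM1 was higher at 1.20, while ZGLP1 (-0.88), ICAM5 (-0.67) and MRPL4 (-0.26, not called by DESeq2) were lower. Near FLG-AS1, besides FLG, TCHH was higher at 0.36 and RPTN at 2.68. RPTN reached the filter only through the treated libraries. GABARAPL1 near OLR1 (-0.09), DICER1 near SERPINA1 (0.02) and ABCG2 near SPP1 (-0.03) were not called.

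Genes that work with the 6 were grouped in lists that leave the 6 out, and counted in the comparisons that did not choose them. Each count is to be read against all genes tested: 42.1% were called higher and 42.6% lower in the knockout, 11.3% and 10.3% with the ASO, and 32% and 32.7% with the UHRF1 siRNA. Scavenger and lipoprotein receptors, the class of OLR1 and CD36, had 7 higher and 6 lower of 13 tested in the knockout, 2 and 2 of 16 with the ASO, and 8 and 3 of 15 with the UHRF1 siRNA. Their median log2 fold changes were 0.38, -0.01 and 0.52, against -0.02, -0.00 and -0.01 over all genes tested. With the UHRF1 siRNA SCARA5 and MSR1, both called higher, reached the filter only through the treated libraries, and SCARA3, called lower, only through the controls. In the knockout SCARF2, called lower, reached it only through parental cells. Nothing is therefore read from the knockout and UHRF1 siRNA counts or medians of these receptors. VLDLR rose by 3.09 ± 0.11 and CD68 by 2.98 ± 0.04 in the knockout, while LRP1, a large endocytic receptor, fell by 0.56 ± 0.06 with the ASO. Genes of fatty acid uptake, storage and PPAR response had 9 higher and 8 lower of 22 in the knockout, 2 and 5 of 23 with the ASO, and 8 and 10 of 23 with the UHRF1 siRNA, with medians of 0.08, -0.02 and -0.19. ANGPTL4, a lipoprotein lipase inhibitor, rose by 3.70 ± 0.11 in the knockout and 1.60 ± 0.16 with the ASO and fell by 2.50 ± 0.10 with the UHRF1 siRNA.

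Acute phase and clade A serpin genes, the company of SERPINA1, had 2 higher and 3 lower of 5 tested in the knockout, 2 and 1 of 5 with the ASO, and 5 and 0 of 8 with the UHRF1 siRNA, with medians of -0.30, 0.55 and 0.67. SAA1, an acute phase apolipoprotein, rose by 2.65 ± 0.12 in the knockout and 0.65 ± 0.10 with the ASO. C3, the central complement protein, rose by 1.49 ± 0.05 with the UHRF1 siRNA, as SERPINA1 did. LCN2, a siderophore-binding protein, fell by 1.60 ± 0.09 in the knockout and 0.58 ± 0.14 with the ASO.

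Osteopontin relatives and receptors had 7 higher and 2 lower of 9 in the knockout, where the ligand SPP1 itself fell, with a median of 1.12, while 42.1% and 42.6% of all genes were called there. CD44 rose by 1.85 ± 0.03 and ITGB5 by 2.29 ± 0.04 there, and ITGA4 fell by 4.47 ± 0.61. With the ASO 2 rose and 1 fell of 9 (median 0.01), and with the UHRF1 siRNA 5 rose and 4 fell of 9 (median 0.16). ICAM family genes and their integrin partners had 5 higher and 2 lower of 7 in the knockout, 2 and 2 of 8 with the ASO, and 4 and 3 of 7 with the UHRF1 siRNA, with medians of 0.51, -0.10 and 0.76. ITGAX, called lower in the knockout, reached the filter there only through parental cells, so nothing is read from that count or median. Epidermal differentiation genes of 1q21, where FLG-AS1 lies, had 5 higher and 2 lower of 7 in the knockout, with a median of 3.85. Among them was SPRR1B, a cornified envelope gene, at 4.25 ± 0.35. FLG, SPRR2D and SPRR1B reached the filter only through the clone, where they were high. Nothing is therefore read from that count or median. With the ASO 1 rose of 3 tested (median 0.24), IVL at 0.80 ± 0.18 (edgeR adjusted p = 0.00658; 0.0604 by DESeq2), and with the UHRF1 siRNA 3 rose and 2 fell of 6 (median 0.44). With the UHRF1 siRNA TCHHL1 and S100A8, both called higher, reached the filter only through the treated libraries. Nothing is read from that count or median either. Few genes of this locus passed the filter, 7 of the 25 listed in the knockout.

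**Figure D4:**
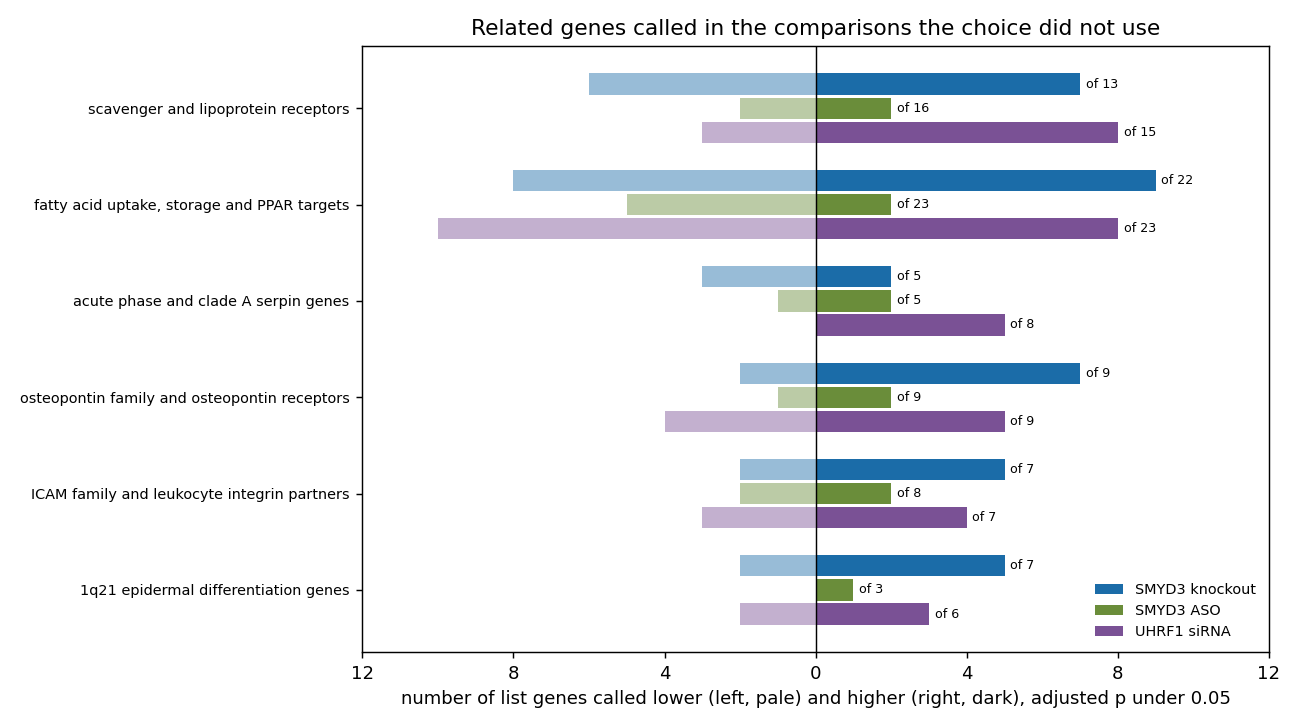
Number of genes called higher (dark, right) and lower (pale, left) in 6 lists related to the chosen genes, for the knockout, the ASO and the UHRF1 siRNA, with the number tested beside each bar. Most lists hold calls in both directions, such as 7 higher and 6 lower of 13 scavenger and lipoprotein receptors in the knockout.

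Among the marker lists, monocyte and macrophage markers had 3 higher and 2 lower of 5 tested in the knockout, 1 and 1 of 6 with the ASO, and 3 and 1 of 5 with the UHRF1 siRNA. Endothelial markers had 0 and 1 of 2, 0 and 0 of 4, and 3 and 1 of 5 in the same order. Fibroblast markers had 0 and 3 of 3, 0 and 2 of 3, and 1 and 1 of 3. Of hepatocyte markers only TF was tested in the knockout, and it fell by 1.65 ± 0.18. Squamous epithelial markers had 9 higher and 1 lower of 12 in the knockout, 5 and 0 with the ASO, and 4 and 6 with the UHRF1 siRNA. The macrophage marker LYZ, called lower in the knockout, reached the filter there only through parental cells. The endothelial marker TEK, called lower with the UHRF1 siRNA, reached it only through the control libraries. Nothing is read from the counts that hold these calls.

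The pattern of each gene over the libraries was set against all genes that passed the filter in every table. The measure was Pearson's r of log2(CPM + 0.5), centred on each table's own control mean, so genes chosen for high values with the SMYD3 siRNA are alike there by choice, and the values are a description. Over 22 libraries CD36 was most like FLG-AS1 (r = 0.987), then STK19 (0.982) and TRIB2 (0.977). OLR1 was most like AC005586.2 (0.984), MANBA (0.982) and SPP1 (0.980), and SPP1 was most like MANBA (0.986), SLC25A16 (0.983) and SPARC (0.983). SERPINA1 went with ATP6V1A (0.977), AREL1 (0.9747) and PLPP3 (0.974). In the knockout these 3 genes had log2 fold changes of 0.22, 0.15 and 0.61. The knockout libraries entered the measure, so a direction shared with SERPINA1 follows from the choice. FLG-AS1 went with STK19 (0.990), PERP (0.989) and TRIB2 (0.988). ICAM4, over the 16 libraries that have it, went with PDIA6 (0.995) and FUT4 (0.993). An r without the SMYD3 siRNA comparison was added after seeing the data. Over the other 16 libraries it ran from 0.905 to 0.972 for the pairs of OLR1, CD36, SPP1 and FLG-AS1, with 0.942 for CD36 with FLG-AS1 and 0.943 for OLR1 with SPP1. SERPINA1 had 0.835 with ATP6V1A, 0.678 with AREL1 and 0.98 with PLPP3, and ICAM4, over 10 libraries, had 0.967 with PDIA6 and 0.911 with FUT4. All these partners were picked over libraries that include the ones used here, so high values follow in part from the choice. They are no separate check. In the clone's libraries CD36 had 0, 3 and 2 reads and FLG-AS1 1, 3 and 3.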

How the data were processed

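Per the submitters' processing notes, bcl2fastq, Bowtie and the hg38 build were used; not given in the sources used here are their versions, the counter, its strand setting and the annotation. Whole read counts per gene, as deposited, make up 3 tables (both siRNAs and the ASO). The deposited knockout table differs and its unit is a signal: gene counts divided by 1 factor per library, and dividing by the smallest step gave whole reads for 100% of values within 0.01. ICAM4 has no line there, and FLG-AS1 was matched by its Ensembl identifier, listed under an older name. The count tables were tested alone with edgeR 4.0.16 (filterByExpr, TMM, robust quasi-likelihood, two-sided), and the knockout signal with limma 3.58.1 (trend, robust) on log2(value + 1) for genes with 10 or more in 3 libraries. edgeR on the recovered reads called 7049 genes higher and 7440 lower of 17020. The knockout effect minus the ASO effect was fitted with limma on log2(CPM + 1) for genes with 0.5 CPM in 2 libraries. P-values were Benjamini-Hochberg adjusted over all genes tested, with 0.05 as the threshold. DESeq2 1.42.0, other scalings, filters and pseudocounts, a replicate block and leaving out each library were alternatives. Scripts were checked on simulated counts.

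The 6 genes and the gene lists were chosen with earlier results of these data known. Named genes were the 6 genes, SMYD3, UHRF1, up to 3 called genes of largest change per list and comparison, nearest annotated neighbours (GENCODE release 29) and the 3 genes most alike in pattern; a selection is given. SLC2A3, TNFSF14 and COL12A1 were named after their values were seen. Mitochondrial genes took 4.82% to 15.7% of reads in the knockout table and 5.73% to 10.2% in the SMYD3 siRNA table. In the ASO and UHRF1 siRNA tables no reads were counted in them, which does not show that the cells had none. R was 4.3.3 and Python 3.11.15.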

Additional observations from a re-analysis of the deposited data

Results flagged for a closer look

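The change in the SMYD3 knockout differed from the change with the SMYD3 ASO in 5 of the 6 genes, by limma's test of the difference itself on log2(CPM + 1). Over all 16880 genes tested, 32.7% were called higher and 41.4% lower for this difference, so such calls were common. The knockout effect minus the ASO effect was -1.09 for OLR1, -0.561 for CD36, 0.668 for SERPINA1, -1.84 for SPP1 and -1.02 for FLG-AS1. The direction was negative for 4 genes and positive for SERPINA1, and it was the same without any 1 of the 10 libraries. FLG-AS1 reached the filter for this test only through parental cells, which favoured a negative sign, so it adds nothing to these counts. ICAM4 has no line in the knockout table. The knockout, a stable line against its parent, and the ASO, a 72 h treatment against PBS, differ in several ways that cannot be told apart.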

How the results depend on the processing

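For the 6 genes, a value counted as kept if it had the same direction and the same side of the threshold. A missing adjusted p was read as not called. For the SMYD3 siRNA, which chose the genes, no threshold was applied. Its values, part of both totals below, counted as kept if the sign held and they moved by less than the spread between libraries. By these rules 135 of 135 values were kept under other tools, scalings, filters, pseudocounts, the replicate block or 1 fit over 16 libraries, as were 152 of 160 with 1 library left out. The exceptions there are ASO values of genes not called, from -0.116 to 0.262 for CD36, -0.256 to 0.361 for FLG-AS1 and -0.141 to 0.06 for SPP1, with OLR1 called lower without ASO replicate 1 and SPP1 not called without UHRF1 control replicate 1. The number called lower without 1 library ran from 2 to 4 in the knockout, as CD36 and FLG-AS1 then miss the filter, and from 0 to 1 with the ASO. Fits in which CD36 and FLG-AS1 missed the filter gave no value for them. These lost calls are not among the 160.

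Replicate numbers were not taken as pairs: same-numbered deviations correlated at -0.0895 to 0.05 in the knockout, -0.0318 to 0.3 with the SMYD3 siRNA, -0.0189 to 0.0186 with the UHRF1 siRNA, and 0.18 in both ASO pairs against -0.18 for crossed numbers, which 2 pairs do not settle. OLR1, SERPINA1 and SPP1 were lower with the ASO in both same-numbered pairs, and with the replicate block OLR1 was at -0.3 (edgeR adjusted p = 0.0513). With the replicate block the ASO calls over all genes went from 2068 higher and 1880 lower to 3477 and 3296, and those over the lists from 16 and 14 to 27 and 23. DESeq2 gave 1308 and 962 over all genes and 8 lower over the lists, and 1 fit over 16 libraries gave 1297 and 786, and 7; the cause was not tested. Upper quartile factors moved the knockout split from 7133 higher and 7208 lower to 5380 and 9112, and neighbours with small rises to -0.179 (ABCG2), -0.143 (DICER1), -0.025 (GABARAPL1) and -0.0822 (GNAI1). Totals without mitochondrial genes moved the knockout minus ASO split from 5513 and 6992 to 4484 and 8280. Of 1790 values for other genes, 84 lost the call and 3 had no adjusted p. ICAM4 with the ASO and CD36 with the UHRF1 siRNA had too few reads to pass the filter.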
